A study of Homo sapiens with 4 samples.

Results

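Replication-dependent histone genes encode the core histones H2A, H2B, H3 and H4 and the linker histone H1. They were followed in the human line HuCCT1, established from a cancer of the bile duct (cholangiocarcinoma). A gene was a member when its current symbol belonged to the H2AC, H2BC, H3C or H4C series or was H1-1 to H1-6, and when the array annotation gave it a row with no other symbol. By this rule 56 of 18377 genes were members, 6 of class H1, 14 of H2A, 17 of H2B, 8 of H3 and 11 of H4. The rule reads symbols only and no measured value, though the members were chosen with earlier results of these data known. All 56 matched the RefSeq gene table by identifier and symbol, which places 49 on chromosome 6, 6 on chromosome 1 and 1 on chromosome 12, and 1 of them, H2BC19P, is a pseudogene. Each member rested on 1 array row.

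The series holds 4 Affymetrix Human Gene 1.0 ST arrays, 1 each for untreated culture, VPA, GEM and the GEM_VPA combination. VPA and GEM are taken in their common sense, valproic acid, an inhibitor of histone deacetylases, and gemcitabine, a nucleoside analogue that stalls DNA synthesis. The sources used here state neither dose nor exposure time. No condition was replicated, so each value is a single array's, ratios between arrays have no error and no p-value, and a treatment cannot be told apart from its array or culture. Bulk RNA also cannot separate fewer cells in S phase from less histone RNA per cell.

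Cells make these histones to package newly copied DNA, and their genes are transcribed mainly in S phase under the coactivator NPAT. The typical transcript has no intron and ends in a conserved stem-loop in place of a poly(A) tail. The stem-loop binding protein SLBP and the U7 small nuclear ribonucleoprotein direct its 3′ end cleavage, and the transcript is degraded quickly when DNA synthesis stops. H3 and H4 form the central tetramer of the nucleosome, H2A and H2B flank it as dimers, and H1 binds the linker DNA. Some members also give polyadenylated transcripts that persist outside S phase, among them H2BC12, H2BC21, H2BC5, H2BC4 and H2AC6.

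Upstream sequences are shown for 7 members, to set genes of opposite direction beside each other. They are the lowest member with a promoter entry in each class, by the mean of the ratios with VPA and with GEM over untreated, and H2BC12 and H2BC21, the only members at least 2-fold higher with either drug. Each line holds the 130 bases before the transcription start in RefSeq (GRCh38.p14), 5′ to 3′ along the gene. Capitals mark matches on either strand to any of 4 motifs. TATAAA is the TATA box, and CCAAT is the box named for its letters. ATTTGCAT is the octamer known to bind POU factors such as OCT1. The H1 box, known from H1 promoters, reads AAACACA.
H1-2: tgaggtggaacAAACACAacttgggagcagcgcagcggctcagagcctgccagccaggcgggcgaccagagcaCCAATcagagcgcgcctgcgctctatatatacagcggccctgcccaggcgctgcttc
H2AC4: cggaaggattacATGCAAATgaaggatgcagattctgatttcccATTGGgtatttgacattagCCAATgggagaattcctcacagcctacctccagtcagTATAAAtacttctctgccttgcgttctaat
H2BC14: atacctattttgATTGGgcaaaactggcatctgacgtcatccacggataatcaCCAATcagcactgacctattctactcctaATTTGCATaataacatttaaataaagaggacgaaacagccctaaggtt
H2BC12: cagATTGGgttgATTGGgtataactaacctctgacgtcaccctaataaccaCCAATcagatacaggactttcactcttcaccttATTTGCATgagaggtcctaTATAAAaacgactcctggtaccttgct
H2BC21: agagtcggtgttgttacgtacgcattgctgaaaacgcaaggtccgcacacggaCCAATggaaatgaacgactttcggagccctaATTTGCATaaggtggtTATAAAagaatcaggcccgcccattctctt
H3C1: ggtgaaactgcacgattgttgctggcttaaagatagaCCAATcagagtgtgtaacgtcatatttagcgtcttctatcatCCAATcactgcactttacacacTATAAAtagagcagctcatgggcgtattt
H4C2: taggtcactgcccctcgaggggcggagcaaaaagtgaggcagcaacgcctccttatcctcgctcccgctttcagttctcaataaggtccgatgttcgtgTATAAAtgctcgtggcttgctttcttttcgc
The windows are chr6:26056471-26056600 on the minus strand for H1-2, chr6:26033619-26033748 on the minus strand for H2AC4, chr6:27814892-27815021 on the plus strand for H2BC14, chr6:27146859-27146988 on the minus strand for H2BC12, chr1:149886683-149886812 on the minus strand for H2BC21, chr6:26020321-26020450 on the plus strand for H3C1 and chr6:26027284-26027413 on the minus strand for H4C2.

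In H2BC14, H2BC12 and H2BC21 the octamer starts 48, 46 and 46 bases before the transcription start. A CCAAT box stands further upstream in all 3, at 77, 79 and 77 bases, and H2BC12 and H2BC21 also hold a TATA box at 27 and 30 bases. In H2AC4 the octamer reads on the opposite strand, 118 bases before the start. Over 300-base windows, 250 bases before the start and 50 after it, the octamer or its reverse complement ATGCAAAT was found in 13 of 16 H2B, 10 of 13 H2A and no H1, H3 or H4 promoters, against 1.80% of 27305 promoters in the table. Some H2A and H2B windows overlap because the genes are divergent neighbours, so 1 octamer can be counted for both. CCAAT or ATTGG was found in 44 of 50 member windows (35.7% of all promoters), including all 16 of H2B and 3 of 9 of H4. TATAAA or TTTATA was found in 34 of 50 (3264 of all 27305), including 12 of 16 of H2B. H2BC14 is among these 12, with its match outside the bases shown. AAACACA or TGTGTTT was found in all 6 H1 windows, 1 H2A window and no H2B, H3 or H4 window (5.76% of all). None of these motif letters overlap in the lines shown, a match is a description and not a shown binding site, and H2AC12, H2BC19P, H3C11, H3C12, H4C1 and H4C3 were not matched to the promoter table.

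The 4 arrays fell into close pairs for these genes. The median absolute log2 difference over the 56 members was 0.12 for the untreated and combination arrays and 0.22 for VPA against GEM, against 0.63 to 0.70 for the other array pairs. Over all 28869 rows, the correlation was 0.996 within each of these close pairs and lay for the other array pairs between 0.984 and 0.987. The array labelled as combined treatment was thus the one most like untreated. No targeted gene exists to check the labels, and directions follow the labels as given. Of 6 biliary epithelial markers with a row of their own, all reached the array median on all 4 arrays, including KRT19 and EPCAM, while the leukocyte markers PTPRC, CD3E and CD14, the hepatocyte marker ALB and the fibroblast marker DCN were below it. APOA1 and COL1A1 were above it on all 4 arrays.

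Levels are log2 intensities, where a step of 1 is a doubling, and were compared only within a gene, since rows differ in their probes. A gene was counted as lower or higher when its log2 ratio reached 1 in size, the 2.0 and 0.5 ratio limits stated for the study, and the brighter of its pair of values reached the median of all rows on the same array. On that level filter 36 of the 56 members could be counted in each comparison with untreated. The other 20 lay below the median on all 4 arrays. A gene can pass this filter through the array on which it is high, so counts are given beside the median over all 56 members.

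With VPA alone, the median histone gene of every class was lower than in untreated cells. Of the 36 members at level 20 were at least 2-fold lower, beside 2.09% of 11611 genes at level, and 0 were higher, beside 1.9%. Of all 56 members 52 were below 0, with a median log2 ratio of -0.67, while the median over all 18377 genes was -0.01. With GEM alone 21 of 36 members at level were at least 2-fold lower, beside 3.01% of all genes at level, and 2 were higher, beside 1.48%. The median over all 56 was -0.65, 49 were below 0, and the median over all genes was -0.01. The comparisons share the untreated array, so their likeness is partly built in. At least 2-fold lower with both drugs were 16 of 36 members at level, beside 1.42% of 11724 genes at level in either comparison. Counted as lower with VPA but not with GEM were 4 (H2AC12, H2AC17, H2AC25 and H4C1), beside 0.648% of those genes. Counted as lower with GEM but not with VPA were 5 (H2AC6, H2AC20, H3C7, H3C10 and H4C5), beside 1.55%. Whether these 9 differ between the drugs has no test, and their GEM over VPA ratios lay between -0.53 for H3C10 and 0.63 for H2AC17. H2AC6 stood at -0.99 with VPA and -1.03 with GEM, just outside and just inside the limit.

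**Figure D1:**
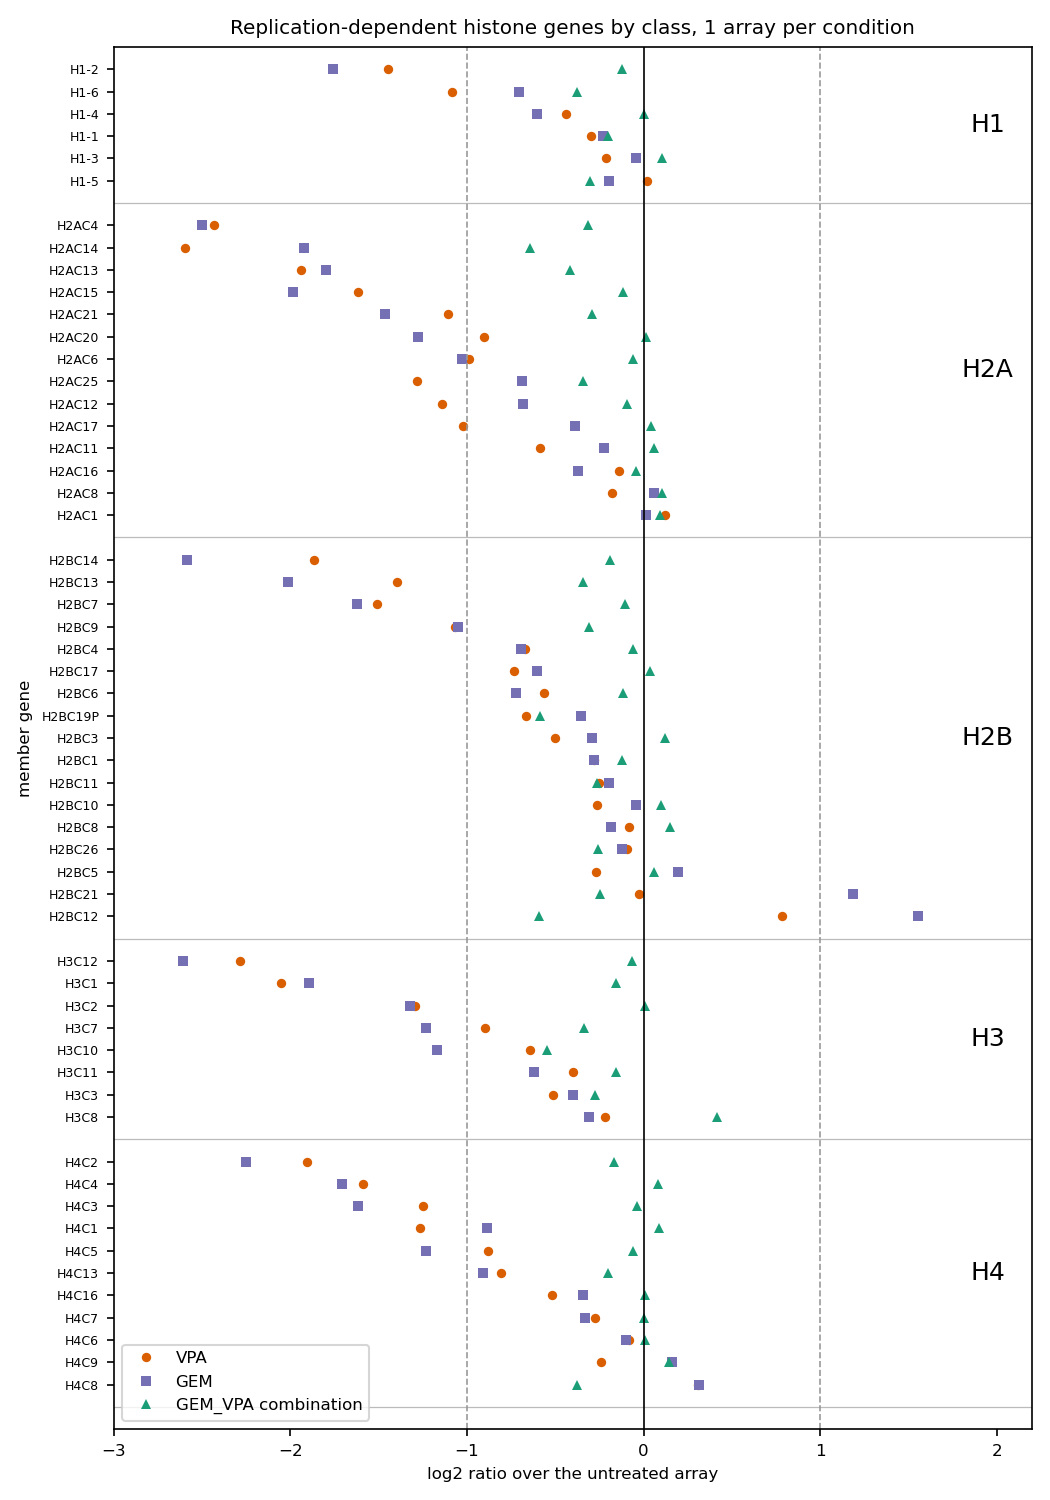
Log2 ratio over the untreated array (horizontal axis) for each of the 56 members (vertical axis), grouped by class and ordered by the mean of the VPA and GEM ratios; circles are VPA, squares GEM and triangles the combination, each from 1 array, and dashed lines mark the 2-fold limits. Squares and circles reach -2.61 and -2.60 while triangles stay between -0.64 and 0.42, and H2BC12 and H2BC21 are the only squares past the upper line.

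Among the H1 genes, which encode the linker histones, H1-2 was the only member counted. Its log2 level was 11.06 in untreated, 9.61 in VPA, 9.31 in GEM and 10.94 in combination cells, which is 2.73-fold lower with VPA and 3.38-fold lower with GEM. H1-4 stood at 14.05, 13.61, 13.45 and 14.05, or -0.44 and -0.60 with the single drugs. As in H1-2 the VPA and GEM arrays were the low ones, by smaller steps, and the combination and untreated values were equal to 2 decimals. H1-6, the testis linker histone, read 7.22, 6.14, 6.52 and 6.84, a ratio of -1.08 with VPA that was not counted because all 4 values lay below the array medians. H1-1 read 6.97, 6.67, 6.74 and 6.77, also below the medians, and H1-3 and H1-5 stayed between -0.21 and 0.02 with either drug.

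The H2A class, whose products pair with H2B, held 8 members at least 2-fold lower with VPA and 7 with GEM, of 11 at level, with medians of -1.06 and -0.86 over all 14. H2AC4 read 10.95 in untreated, 8.51 in VPA, 8.45 in GEM and 10.63 in combination cells, 5.39-fold lower with VPA and 5.66-fold lower with GEM. H2AC14 read 8.34, 5.75, 6.42 and 7.70. Its VPA and GEM values were under the 25th percentile of their arrays and it was 6.05-fold and 3.79-fold lower with the single drugs. H2AC13 read 10.63, 8.69, 8.83 and 10.21, and H2AC15 read 11.71, 10.09, 9.72 and 11.59. In all 4 genes the single-drug arrays were the low ones, and the combination array was within 0.64 of untreated. The testis gene H2AC1 was the only H2A member above 0 with both drugs, at 0.12 and 0.02, below the medians of its arrays.

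The H2B class was the most mixed. Of its 11 members at level 4 were at least 2-fold lower with each drug (H2BC14, H2BC13, H2BC7 and H2BC9), 2 were higher with GEM, and the medians over all 17 were -0.50 with VPA and -0.29 with GEM. H2BC14 read 13.75 in untreated, 11.89 in VPA, 11.17 in GEM and 13.56 in combination cells, 3.64-fold and 6.01-fold lower with the single drugs. H2BC13 read 8.31, 6.92, 6.30 and 7.97, with the GEM value under the 25th percentile of its array. H2BC7 read 12.11, 10.60 and 10.48 on the first 3 arrays and its combination ratio over untreated was -0.11. H2BC9 read 10.05 in untreated, 8.98 in VPA and 9.74 in combination cells, with a GEM ratio over untreated of -1.05. These 4 genes again put the VPA and GEM arrays low and the combination array close to untreated.

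H2BC12 went the other way. It read 11.52 in untreated, 12.31 in VPA, 13.08 in GEM and 10.93 in combination cells, a log2 ratio of 0.78 with VPA and 1.56 with GEM, or 1.72-fold and 2.94-fold higher. The combination array was its lowest, 4.43-fold under GEM and 2.59-fold under VPA. H2BC21 read 9.21, 9.19, 10.40 and 8.97, so only the GEM array was high, 2.28-fold over untreated and 2.31-fold over VPA. H2BC21 was the only member counted between the GEM and VPA arrays, where 0.0349% of 11477 genes at level were at least 2-fold higher and 0.27% lower. H2BC5, next in the class, read 9.12, 8.85, 9.31 and 9.18, within 0.27 of untreated on every array.

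The H3 class had 3 of 6 members at level counted as lower with VPA and 5 of 6 with GEM, with medians of -0.77 and -1.20 over all 8, all of them below 0 with either drug. H3C12 read 11.39 in untreated, 9.10 in VPA, 8.78 in GEM and 11.32 in combination cells, 4.87-fold and 6.09-fold lower with the single drugs. H3C1 read 10.96, 8.90, 9.06 and 10.80, and H3C2 read 12.92, 11.63, 11.60 and 12.93. H3C7 read 8.63, 7.73, 7.40 and 8.30, past the limit with GEM (-1.23) and short of it with VPA (-0.90). In each of these 4 genes the combination array lay within 0.34 of untreated and above both single-drug arrays.

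The H4 class had 4 of 6 members at level counted as lower with each drug, with medians of -0.81 and -0.89 over all 11. H4C2 read 11.54 in untreated, 9.63 in VPA, 9.29 in GEM and 11.37 in combination cells, 3.75-fold and 4.77-fold lower. H4C4 read 10.93, 9.34, 9.22 and 11.01, H4C3 read 12.66, 11.41, 11.04 and 12.62, and H4C1 read 9.22, 7.95, 8.33 and 9.30. H4C6 was at level on all 4 arrays and stood at -0.08 and -0.10, so the class was not uniform. H4C8 was the only H4 member above 0 with both drugs (0.31 and 0.32), at values below the array medians.

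The classes differed in their medians, but each class mixes rows near the low end of the arrays with rows well above it. Of the 31 members whose mean over the 4 arrays reached the mean array median of 7.89, the median ratio was -1.11 with VPA and -1.23 with GEM, and of the 25 below it -0.27 and -0.29. All genes split in the same way had medians of -0.05 and 0.01 with VPA and -0.05 and 0.02 with GEM. Members were thus below all genes in both parts of the intensity range, and further below in the upper part. Why the parts differ was not tested.

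With the combination the histone genes stood near their untreated levels. Over untreated 0 of 36 members at level were at least 2-fold lower, beside 0.0261% of 11489 genes, and 0 were higher, beside 0.122%, so these counts are no result about the members. The median over all 56 was -0.11, with 36 below 0, and the median over all genes was -0.03. The lowest was H2AC14 at -0.64, followed by H2BC12 at -0.59 and H2BC19P at -0.58, and the highest was H3C8 at 0.42. Of the 20 members at least 2-fold lower with VPA, 19 lay within 0.5 of untreated on the combination array, as did 19 of the 21 lower with GEM. The share of all genes within 0.5 was not counted. Over all genes the robust standard deviation of the difference between these arrays was 0.15, so such closeness was not particular to the members.

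Set against each single drug, the combination array was higher for the same families. Over GEM 16 of 33 members at level were at least 2-fold higher, beside 3.6% of 11638 genes, and 2 were lower, H2BC12 and H2BC21, beside 1.78%. Over VPA 16 of 33 were higher, beside 1.48% of 11600 genes, and 1 was lower, H2BC12, beside 1.68%. The medians over all 56 were 0.59 and 0.62. Both lower for VPA over untreated and higher for the combination over GEM were 14 of 36 members, beside 1.05% of 11800 genes. Both lower for GEM over untreated and higher for the combination over VPA were 13 of 36, beside 1.15% of 11805 genes. H3C12 led both ratios of the combination over a single drug, 5.82-fold higher than with GEM and 4.65-fold higher than with VPA, followed by H2BC14 over GEM (5.27-fold) and H2AC4 over VPA (4.34-fold).

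The departure from additivity, that is the log2 ratio of the combination over untreated less the ratios of both single drugs, was 1 or more in 28 of the 36 members at level, beside 13% of 11808 genes. It was -1 or less in 2, beside 7.38%. H3C12 had the largest value, 4.82, then H2AC4 at 4.62, H2BC14 at 4.26 and H4C2 at 4.00. H2BC12 at -2.93 and H2BC21 at -1.41 were the 2 below. The median over all 56 was 1.29, from 1.84 in H2A, 1.53 in H3 and 1.52 in H4 to 0.70 in H1 and 0.44 in H2B. These values use all 4 arrays once, restate the ratios above in a single number and have no error of their own.

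**Figure D2:**
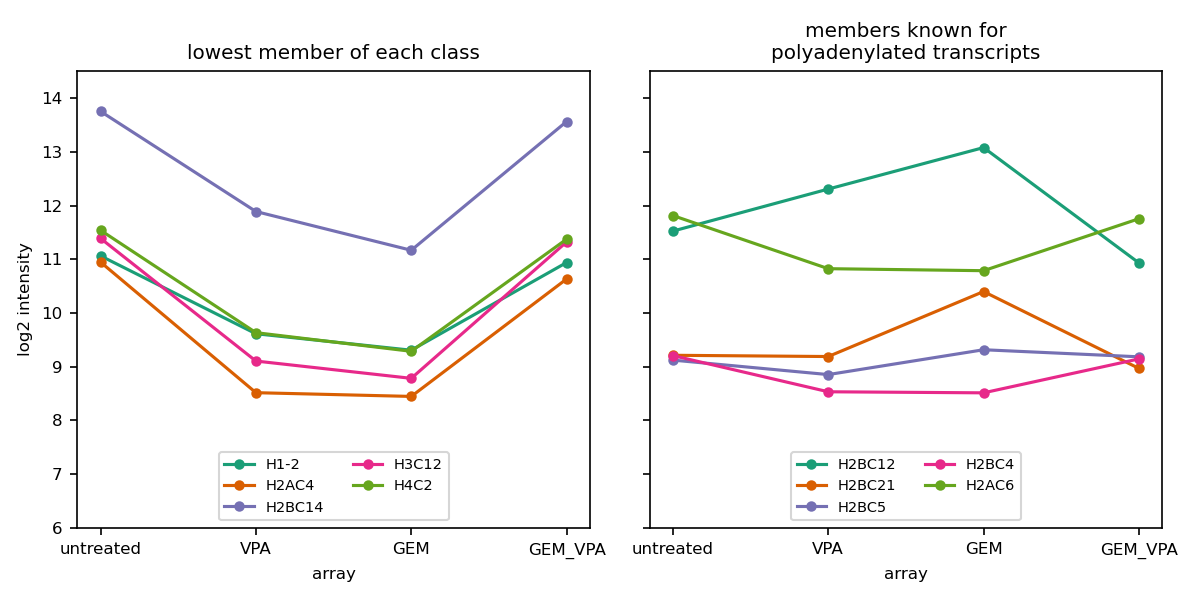
Log2 intensity (vertical axis) on each of the 4 arrays (horizontal axis) for the lowest member of each class by the mean of the VPA and GEM ratios (left) and for the 5 members known for polyadenylated transcripts (right); each point is 1 array, lines join the values of a gene, and heights of different genes are not comparable. The 5 genes on the left are low on the VPA and GEM arrays and near untreated on the combination array, whereas H2BC12 peaks on GEM at 13.08 and H2BC21 at 10.40.

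The members known for polyadenylated transcripts, all 5 at level, spread from H2AC6 at -0.99 with VPA and -1.03 with GEM to H2BC12 at 0.78 and 1.56. H2BC4 read 9.21 in untreated, 8.53 in VPA, 8.51 in GEM and 9.14 in combination cells, and H2AC6 read 11.81, 10.82, 10.79 and 11.75, both in the order of the lowered genes. The medians of all 5 were -0.27 with VPA and 0.19 with GEM. With GEM 1 of the 5 was counted as lower, beside 3.01% of all genes at level, and 2 as higher, beside 1.48%. RefSeq gives 52 members a gene span of 386 to 797 bases. The other 4, H2BC4, H2BC5, H2BC12 and H2BC21, span 2224 to 13229 bases. The 4 long members had median ratios of -0.15 with VPA and 0.69 with GEM, and the 52 short ones -0.77 and -0.68, where the highest short member was H4C8. Both 2-fold higher genes were among the long ones, and this list was chosen with earlier results of these data known. The split leaves out the 20 rows with several symbols described below, of which 14 were below 0 with GEM. Among them the row of H3C6 and H3C11 was at 1.32 with GEM, and H3C11 is a short member. The row of H2BC12, H2BC12L, H2BC17 and H2BC5 was at -0.52.

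Divergent H2A and H2B neighbours, with starts under 500 bases apart in RefSeq, gave 9 pairs among the 50 members with a promoter entry. H2AC12 and H2BC19P had no entry, so any pair that holds either of them is missing here. In H2AC14 and H2BC14 the ratios were -2.60 and -1.87 with VPA and -1.92 and -2.59 with GEM, and in H2AC13 and H2BC13 they were -1.94 and -1.40 with VPA and -1.80 and -2.01 with GEM, so both genes of each pair were lower. H2AC20 and H2BC21, neighbours on chromosome 1, parted with GEM, at -1.28 and 1.19, and with VPA stood at -0.90 and -0.02. H2AC6 and H2BC4 were at -0.99 and -0.67 with VPA and -1.03 and -0.69 with GEM. H2AC17 and H2BC17 were at -1.02 and -0.73 with VPA and -0.39 and -0.60 with GEM. H2AC25 and H2BC26 were at -1.28 and -0.10 with VPA and -0.69 and -0.12 with GEM. The 3 remaining pairs, H2AC1 with H2BC1, H2AC8 with H2BC8 and H2AC11 with H2BC11, stayed between -0.59 and 0.12 with either drug.

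The ratios of H2B genes with and without the octamer overlapped, and a relation of the octamer to the ratios was not tested. The 13 H2B members with it ranged from -1.87 to 0.78 with VPA and from -2.59 to 1.56 with GEM, that is from H2BC14 to H2BC12, whose upstream lines are shown above. The 3 without it, H2BC13, H2BC26 and H2BC5, ranged from -1.40 to -0.10 with VPA and from -2.01 to 0.19 with GEM. For the TATA box in the 300-base windows the ratios of H2B genes also overlapped. The 12 with it had the same ends, H2BC14 and H2BC12, with either drug. The 4 without it ranged from -1.51 to -0.10 with VPA and from -1.62 to -0.04 with GEM. A relation of the TATA box to the ratios was not tested.

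Histone genes have near-identical copies, and the array has a further 20 rows that carry several symbols with at least 1 of these families among them. They cover 16 symbols that have no row of their own and were not counted as members. With VPA 18 of these rows were below 0 and 7 at -1 or less. With GEM 14 were below 0, 9 at -1 or less and 1 at 1 or more. On the combination array all 20 were below 0 with a median of -0.11 and none reached the limit. The row of H3C4 and H2AC7 read 12.95 in untreated, 11.45 in VPA, 11.30 in GEM and 12.93 in combination cells. One row of H4C11 and H4C12 read 11.96, 10.59, 10.44 and 11.82, and the brightest of 4 rows of H3C13, H3C14 and H3C15 read 13.23, 12.22, 11.91 and 13.08. These follow the pattern of the lowered members.

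Shared rows also went against single-symbol rows, so the value of an individual gene is uncertain. The row of H3C6 and H3C11 read 6.91 in untreated, 7.60 in VPA, 8.23 in GEM and 6.77 in combination cells, a ratio of 1.32 with GEM, whereas the row of H3C11 alone was at -0.62. The row of H2BC12, H2BC12L, H2BC17 and H2BC5 read 12.96, 12.05, 12.44 and 12.91, at -0.91 with VPA and -0.52 with GEM, while the row of H2BC12 alone was at 0.78 and 1.56. H2BC21 was on a row with H2BC19P and H2BC20P at -0.45 and -0.59, and on one with H2BC18 and H2BP1 at -0.41 and 0.42. Both rows of H4C14 and H4C15 stood higher with GEM, by 0.63 and 0.61, and lower with VPA, by -0.24 and -0.26. Which transcripts the probes of each row capture was not tested.

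**Figure D3:**
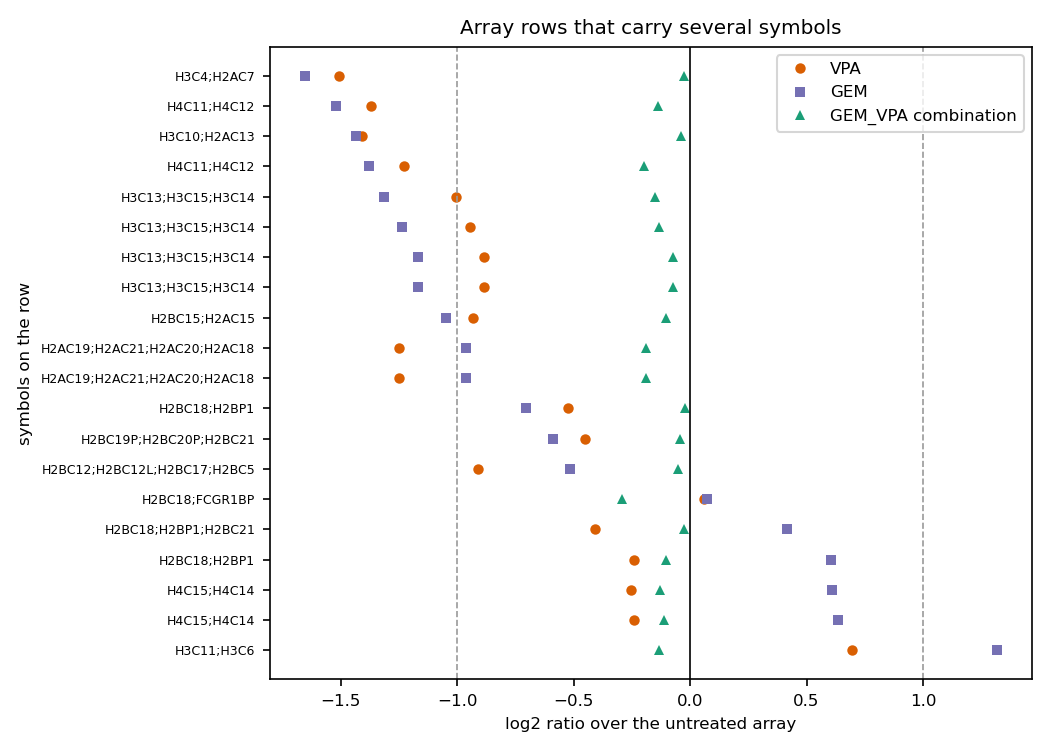
Log2 ratio over the untreated array (horizontal axis) for the 20 array rows that carry several symbols (vertical axis), ordered by the GEM ratio; circles are VPA, squares GEM and triangles the combination, each from 1 array, and dashed lines mark the 2-fold limits. Most rows are left of 0 with both drugs, the row of H3C6 and H3C11 is the only square past the upper limit, and all triangles are just left of 0.

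Histone genes outside the replication-dependent set, which supply variants through the cell cycle, ranged from -1.12 to -0.01 with VPA and from -1.13 to 0.05 with GEM. Of 9 measured, 8 at level, 1 was at least 2-fold lower with VPA and 2 with GEM, beside 2.09% and 3.01% of all genes at level. Their medians of -0.56 and -0.62 stand beside -0.67 and -0.65 for all 56 members and -1.11 and -1.23 for the 31 members in the upper part of the intensity range. MACROH2A2, a large H2A variant, read 10.70 in untreated, 9.58 in VPA, 9.67 in GEM and 10.27 in combination cells. H2AZ2, an H2A.Z gene, was at -0.59 and -1.13, H3-3B, an H3.3 gene, at -0.75 and -0.70, and H2AZ1 at -0.56 and -0.73. MACROH2A1 was at -0.01 and -0.08.

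Genes that drive and mature histone transcripts had medians closer to 0 than the histone members. Of 11 measured genes of histone transcription, 10 were at level and 0 past the limit with either drug, with medians of -0.24 and -0.32. Of all genes at level 2.09% were lower with VPA and 3.01% with GEM, so in lists this short such counts are no result. NPAT read 10.17 in untreated, 9.67 in VPA, 9.31 in GEM and 10.24 in combination cells, and CASP8AP2, which localises to histone locus bodies, was at -0.65 and -0.73. CCNE1, the cyclin E that activates CDK2, was at -0.61 and -0.48, and TRRAP, a cofactor of histone acetylation complexes, at -0.47 and -0.32. The 19 genes of histone mRNA processing and decay had medians of -0.34 and -0.38. Beside the same shares of all genes, 1 of the 19 was at least 2-fold lower with VPA and 0 with GEM. That gene was ERI1, an exonuclease that trims histone mRNA ends, at -1.04 and -0.73. SLBP read 11.45, 10.93, 11.04 and 11.34, and ZNF473, a zinc finger protein of the U7 complex, COIL, the coilin of Cajal bodies, and CPSF2, of the cleavage factor, lay between -0.82 and -0.51 with either drug. NPAT and SLBP were thus lower on both single-drug arrays by under 2-fold.

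A smaller part of the histone chaperone genes than of the S phase genes passed the limit. Of 21 chaperone and acetylation genes, all at level, 1 was counted as lower with VPA, beside 2.09% of all genes at level, and 4 with GEM, beside 3.01%. Their medians were -0.47 and -0.56, with 21 and 20 below 0. MMS22L, a partner of the histone reader TONSL, was at -0.97 and -1.50, NASP, which carries H3 and H4, at -1.16 and -1.25, and CHAF1A and CHAF1B of chromatin assembly factor 1 at -0.96 and -1.03, and -0.79 and -1.02. Of 22 S phase genes, 13 were at least 2-fold lower with VPA and 14 with GEM, with medians of -1.10 and -1.28. All 22 were at level, and the 31 members in the upper part of the intensity range had medians of -1.11 and -1.23. POLE2, a subunit of DNA polymerase epsilon, was at -1.41 and -1.85, MCM6 of the replicative helicase at -1.32 and -1.85, ORC1 of the origin recognition complex at -1.56 and -1.73, and POLA1 of polymerase alpha at -1.32 and -1.72. On the combination array the medians of the chaperone and S phase lists were -0.06 and -0.08, beside -0.11 for the histone members. These lists had medians below 0 on the same arrays as the histone members, and their part in the histone values was not tested.

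**Figure D4:**
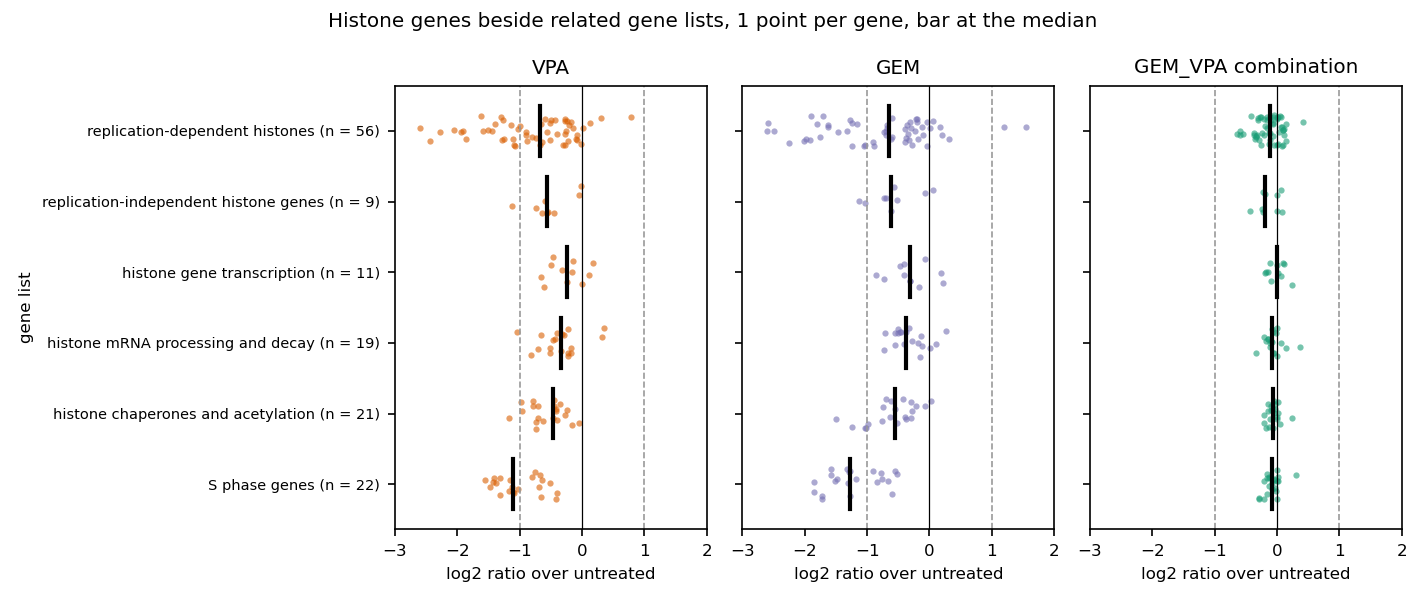
Log2 ratio over the untreated array (horizontal axis) for the 56 members and 5 related gene lists (vertical axis), in 1 panel each for VPA, GEM and the combination; points are genes from 1 array per condition, spread vertically for legibility, bars are medians and dashed lines mark the 2-fold limits. The histone members span the widest range, from -2.61 to 1.56 with GEM. With VPA and with GEM the S phase genes have the lowest medians of these lists, though 20 members lie below the array medians. All lists sit near 0 on the combination array.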

How the data were processed

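The report rests on 4 Human Gene 1.0 ST arrays, 1 per condition. The deposited values are log2 intensities that the authors normalized in GeneSpring GX 11.5, per the labels' series text, with RMA named in the submitters' processing notes. RMA equalises intensity distributions and compresses low values, and the sources used here name no genome build for the rows. Platform annotation gave 1 symbol to 19310 of 28869 rows, several to 1752 and none to 7807. A gene took the mean of its single-symbol rows, and each member had 1 row.

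Ratios were computed over the whole table and no test was made, since there is 1 array per group. The call rule and the requantiling step were tested on simulated data. Members and gene lists were chosen with earlier results of these data known. Named genes were the 4 lowest members of each class by the mean single-drug ratio, members 2-fold higher with a drug, list members with the largest ratios, SLBP and NPAT, and members at the ends of ranges, near the limit, in neighbour pairs or on disagreeing rows. Other genes named for the label check came from a marker list. Promoters were taken from RefSeq (GRCh38.p14). The alternatives were scaling, level filter, fold limit, row choice and shared rows. Software was Python 3.11.15, numpy 2.4.6, pandas 2.3.3 and matplotlib 3.10.9.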

Additional observations from a re-analysis of the deposited data

Results flagged for a closer look

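The VPA ratio went opposite ways without and with GEM in a share of the members. For 14 of 36 members at level the ratio was at least 2-fold lower for VPA over untreated and at least 2-fold higher for the combination over GEM, beside 1.05% of 11800 genes at level in either comparison. For GEM over untreated and the combination over VPA the number was 13 of 36, beside 1.15% of 11805 genes. All 13 were among the 14, H3C12, H2AC4 and H4C2 included, and only H2AC21 was in the first set alone. Both contrasts use the same 4 arrays, so they are not separate findings. Within each of these contrasts the ratios share no array, each arm is 1 array, and the difference was not tested.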

How the results depend on the processing

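The precision of every value is limited by the 4 arrays. The 14 counts of members kept within 1.5 times their values when the columns were quantile normalized again or each array was centred on its median, as did the 12 counts between arrays with no level filter or with rows counted singly and shared member rows added (72 rows). Choosing the row with the highest mean level changed nothing, since each member has 1 row. With rows counted singly the median for VPA over untreated was -0.88. H2BC9 with GEM was at -0.98 after quantile normalization, just short of the limit. Counts moved with the fold limit. At 1.5-fold, 1 member was higher with VPA over untreated, 2 were lower for the combination over untreated, 25 were higher for the combination over GEM and 25 over VPA, and 4 were higher and 1 lower for GEM over VPA. At 3-fold, 9 members were lower with VPA, 13 were lower and 0 higher with GEM, 9 were higher and 1 lower for the combination over GEM, 6 were higher and 0 lower for the combination over VPA, and 0 were higher for GEM over VPA. Over all genes, the balance of lower against higher calls with VPA was 243 to 221, 182 to 256 after quantile normalization and 301 to 190 after median centring. For the combination over VPA it was 195 to 172, 217 to 153 and 163 to 225. No paired analysis was possible because each group has 1 array.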
